A study of Mus musculus with 4 samples.

Results

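The glucocorticoid receptor gene Nr3c1 and 7 well-known glucocorticoid-induced genes (Fkbp5, Tsc22d3, Sgk1, Klf9, Pdk4, Errfi1 and Cdkn1a) were picked by symbol from the 49492 gene rows of the count table, and all 8 were found, were tested and are given here. Their transcripts were counted in 4 RNA sequencing libraries of whole testis from male C57BL/6J mice. By the labels, 2 libraries came from mice with a Spry1 knockdown (hairpin shSpry1) that had received LPS (lipopolysaccharide, or endotoxin, from the outer membrane of Gram-negative bacteria, which sets off inflammation) and 2 from mice with a control hairpin (shControl, genotype WT) that had also received LPS. Age, LPS dose, sampling time, the cells that took up the hairpin and whether the replicates were separate animals are not given in the labels used here. The spread behind each p-value is therefore that between libraries and may be technical. For each gene most of that spread is borrowed from all genes tested, with 34 prior against 2 residual degrees of freedom.

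In place of sample titles, the headings over the counts read LPS and NC. NC was taken to mean the control hairpin and LPS, the heading that was left, the knockdown; since LPS stands in all 4 titles this is a reading, and if the headings mean LPS against no LPS, every difference belongs to that contrast. Below, LPS columns and NC columns name the groups. Spry1, the targeted gene, had 26 and 17 counts in the LPS columns, against 45 and 41 counts in the NC columns. Scaled for library size, the log2 fold change was -0.82 (95% interval -1.38 to -0.26, edgeR adjusted p = 0.0212 in the test described below). The call was lost with DESeq2 and in edgeR without LPS replicate 2, NC replicate 1 or NC replicate 2. Over 11 alternatives in processing the value ran from -1.08 to -0.61. Libraries held 17612342 to 22451132 counts, and transcripts of spermatids, the post-meiotic germ cells of the testis, were abundant in every library (Prm2, which encodes a protamine that packs sperm DNA, had 114696 to 239832 counts).

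The glucocorticoid receptor is a nuclear receptor that waits in the cytoplasm in a complex with the chaperone HSP90 and immunophilins such as FKBP5. When it binds cortisol or corticosterone it moves into the nucleus, where it binds palindromic response elements beside target genes and also restrains inflammatory factors such as NF-kB and AP-1. In the testis the receptor is known from somatic cells, among them Sertoli, Leydig and peritubular cells and macrophages.

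The DNA that the receptor prefers is a pair of 6-letter arms around 3 free bases, spelled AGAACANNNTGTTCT. The 300 bases around each annotated transcription start (250 before and 50 after it) of the response genes were searched for it on both strands, in RefSeq sequence of GRCm38.p6, the assembly to which mm10 belongs. A total of 7 of the 8 genes had such windows, 16 in all. Sgk1 had 6 of them, Tsc22d3 had 3 and each other gene fewer, so Sgk1 weighs most in the shares of windows below. The full element was in 1 of the 16, a start of Sgk1, and in 3 of the 32841 windows of all genes (0.00913%). With 1 base of each arm left free (AGNACANNNTGTNCT), the element was still in that 1 window, and in 0.0639% of all windows. A single arm (AGAACA on either strand, which the full element also contains) was in 4 of the 16 windows (25%), belonging to Sgk1 and Tsc22d3, and in 19.0% of all windows. Shown are the Sgk1 window with the full element, the Tsc22d3 window with a lone arm, and for comparison an Errfi1 window without either, since Errfi1 and Tsc22d3 are the genes that passed the test below; capitals mark the arms and the full element.
Sgk1, chr10:21993640-21993939, plus strand: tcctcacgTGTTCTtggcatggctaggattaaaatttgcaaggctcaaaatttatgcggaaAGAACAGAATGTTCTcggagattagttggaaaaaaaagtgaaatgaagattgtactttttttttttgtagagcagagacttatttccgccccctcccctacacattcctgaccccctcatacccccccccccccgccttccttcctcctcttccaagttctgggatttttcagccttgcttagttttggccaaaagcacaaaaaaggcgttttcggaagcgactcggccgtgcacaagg
Tsc22d3, chrX:140600473-140600772, minus strand: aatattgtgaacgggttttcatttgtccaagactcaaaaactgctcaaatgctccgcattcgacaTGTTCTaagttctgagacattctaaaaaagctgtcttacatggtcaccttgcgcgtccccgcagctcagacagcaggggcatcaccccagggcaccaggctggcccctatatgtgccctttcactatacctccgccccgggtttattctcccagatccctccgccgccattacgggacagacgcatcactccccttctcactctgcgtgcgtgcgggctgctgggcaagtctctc
Errfi1, chr4:150854820-150855119, plus strand: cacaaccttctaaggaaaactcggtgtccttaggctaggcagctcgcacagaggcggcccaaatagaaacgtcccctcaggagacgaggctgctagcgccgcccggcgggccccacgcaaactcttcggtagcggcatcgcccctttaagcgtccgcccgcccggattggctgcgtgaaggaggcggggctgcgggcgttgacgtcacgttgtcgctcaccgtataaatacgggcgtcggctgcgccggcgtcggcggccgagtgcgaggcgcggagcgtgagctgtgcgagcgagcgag
In the Sgk1 window the 15-letter match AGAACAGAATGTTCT lies at chr10:21993701-21993715, beginning 189 bases before the start site. A match is a run of letters and not a bound site, and sites outside these windows were not searched.

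Differences between the groups were small, with estimates of 1.03 to 1.44 times the NC level. In the quasi-likelihood test of edgeR, adjusted by Benjamini-Hochberg over all 20855 genes tested, 2 of the 8 rose in the LPS columns (Errfi1 and Tsc22d3), 0 fell and 6 were not called, that is 25% called; at an unadjusted p under 0.05, 3 were higher and 0 lower. Over all genes tested, 31.5% were called in either direction and 15.2% were called higher, so the share among the 8 was near the background. Their median log2 fold change was 0.28, from 0.04 to 0.53, where the median over all genes was 0.00 and the median absolute value was 0.22. In 4 of the 8 genes both LPS libraries lay above both NC libraries in CPM (counts scaled to the library size, with TMM factors), and in 0 of the 8 they lay below, where 64.1% of all genes tested had groups apart, 32.1% with the LPS libraries above. In bulk tissue, fewer cells of a type and less RNA per cell cannot be told apart.

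**Figure D1:**
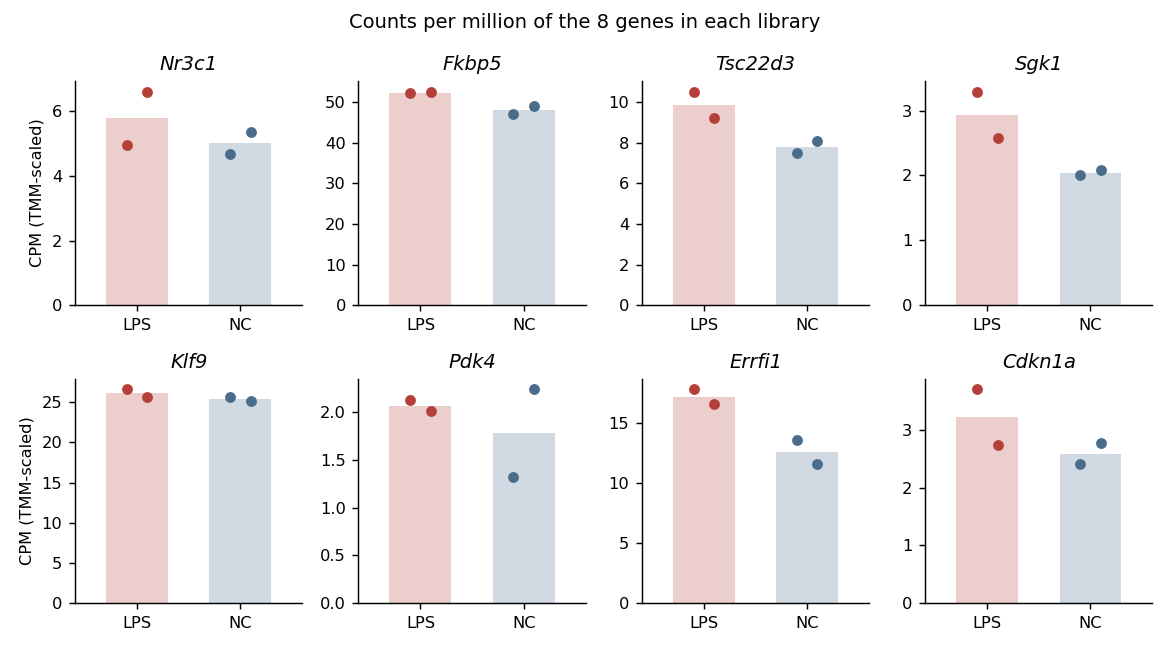
CPM (TMM-scaled, vertical axis from 0) of each of the 8 genes in the LPS and NC columns; points are the 2 libraries of a group and bars their mean. The groups are apart for Fkbp5, Tsc22d3, Sgk1 and Errfi1 and overlap for Nr3c1, Klf9, Pdk4 and Cdkn1a.

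Nr3c1, the receptor gene itself (chromosome 18, 39410545 to 39491301 in mm10, minus strand), was at 4.96 and 6.60 CPM in the LPS columns, against 4.67 and 5.35 CPM in the NC columns. The groups overlapped, since LPS replicate 1 lay below NC replicate 2. Its means were 5.78 ± 1.16 CPM and 5.01 ± 0.48 CPM (SD, n = 2 each), a log2 fold change of 0.20 (95% interval -0.13 to 0.53; edgeR adjusted p = 0.378). The interval runs on the linear scale between 0.914 and 1.44 times the NC level. Without LPS replicate 2 the log2 fold change was -0.01, so the sign of this small difference rested on that library. Profiles over the 4 libraries were compared with 109 tested genes of all the lists described below except the cell type markers. These lists include paralogues and p53 and PPAR-alpha target genes. Most like Nr3c1 were Pparg, Cyp11b1 and Acaa2. Their Euclidean distances were 0.101, 0.130 and 0.146 between log2 profiles centred on their own mean. Cyp11b1 had 10 to 12 counts per library, and the 0.5 CPM added before the logarithm flattens so low a profile. Over 4 libraries this is a description only.

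Fkbp5 encodes an immunophilin of the receptor complex that lowers the receptor's affinity for hormone and is induced by it, a negative feedback. It was at 52.2 and 52.6 CPM in the LPS columns, against 47.1 and 49.0 CPM in the NC columns (chromosome 17, 28399095 to 28517524, minus strand). The 2 groups did not overlap, and the replicates lay close together, yet the difference was small. The log2 fold change was 0.13 (95% interval -0.01 to 0.26; edgeR adjusted p = 0.157), so that a rise of more than 1.20-fold lay outside the interval. Scaled by library size alone it was called (0.19; edgeR adjusted p = 0.0269, range over its alternatives 0.0269 to 0.461). Fkbp4, which encodes the related immunophilin that favours transport of the receptor to the nucleus, was the more abundant of the pair per length, at 609 and 639 TPM (counts scaled by gene length and library) in the LPS columns and 561 and 571 TPM in the NC columns. The ratio of Fkbp4 to Fkbp5 in TPM was 30.0 and 31.1 in the LPS columns, against 32.3 and 32.2 in the NC columns.

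Tsc22d3 encodes GILZ, a leucine zipper protein known to mediate anti-inflammatory effects of glucocorticoids. It had 208 and 165 counts in the LPS columns, against 165 and 166 counts in the NC columns, which is 10.5 and 9.23 CPM against 7.49 and 8.08 CPM (chromosome X, 140539528 to 140600659, minus strand). Both LPS libraries were above both NC libraries. The rise was 0.35 on the log2 scale with a standard error (SE) of 0.13, or 1.27-fold (edgeR adjusted p = 0.0315). DESeq2 did not call it (adjusted p = 0.266), nor did edgeR with LPS replicate 1 left out (0.25; adjusted p = 0.257) or with NC replicate 1 left out (0.30; adjusted p = 0.166), over a range of 0.0135 to 0.266.

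Sgk1, a kinase gene induced by glucocorticoids and mineralocorticoids whose product regulates ion transport and cell survival, was at 3.29 and 2.57 CPM in the LPS columns, against 2.00 and 2.09 CPM in the NC columns (chromosome 10, 21882184 to 21999903, plus strand). The LPS libraries lay above the NC libraries and further apart from each other. Its log2 fold change of 0.53 was the highest point estimate of the 8 and exceeded in size that of 81.0% of genes tested, but with 43 to 65 counts per library it was not called (95% interval 0.08 to 0.98; unadjusted p = 0.0234, edgeR adjusted p = 0.0683). It was called when scaled by library size alone (0.59; edgeR adjusted p = 0.0420) and without LPS replicate 2 (0.69; edgeR adjusted p = 0.0384), over a range of 0.0384 to 0.426. This is the gene whose start window held the full response element printed above.

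Errfi1 encodes MIG6, a feedback inhibitor of the EGF receptor family that glucocorticoids as well as growth factors induce. It was at 17.8 and 16.6 CPM in the LPS columns, against 13.6 and 11.6 CPM in the NC columns (chromosome 4, 150853919 to 150868892, plus strand). The 2 groups did not overlap. The rise was 0.45 with an SE of 0.10 on the log2 scale, or 1.37-fold (edgeR adjusted p = 0.000956). This call held in all 11 alternatives run, with adjusted p-values (Benjamini-Hochberg in edgeR, DESeq2 or limma) of 0.000132 to 0.0343 and log2 fold changes of 0.34 to 0.58.

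Klf9, a Krüppel-like transcription factor gene that is a direct receptor target in many tissues, was at 26.6 and 25.6 CPM in the LPS columns, against 25.7 and 25.1 CPM in the NC columns (chromosome 19, 23141226 to 23166911, plus strand). The groups overlapped by a narrow margin. Its log2 fold change of 0.04 was the smallest of the 8 in size, and its 95% interval of -0.13 to 0.20 leaves room for a rise of up to 1.15-fold (edgeR adjusted p = 0.769).

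Pdk4 encodes a kinase that shuts off pyruvate dehydrogenase and so spares glucose during fasting. It was at 2.13 and 2.01 CPM in the LPS columns, against 1.32 and 2.24 CPM in the NC columns (chromosome 6, 5483351 to 5496309, minus strand). Here the NC libraries held both the lowest and the highest value. With 29 to 46 counts per library the 95% interval was the widest of the 8, from -0.29 to 0.76 around a log2 fold change of 0.23 (edgeR adjusted p = 0.540), and without NC replicate 1 the value was -0.10. At this depth a rise of up to 1.69-fold lay within the interval.

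Cdkn1a encodes p21, an inhibitor of cyclin-dependent kinases that is induced by p53 as well as by glucocorticoids. It was at 3.70 and 2.74 CPM in the LPS columns, against 2.40 and 2.77 CPM in the NC columns (chromosome 17, 29090979 to 29100722, plus strand). LPS replicate 1 was above the other 3 libraries, which lay together. The log2 fold change was 0.32 (95% interval -0.10 to 0.75; edgeR adjusted p = 0.257), and it was 0.09 without LPS replicate 1.

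**Figure D2:**
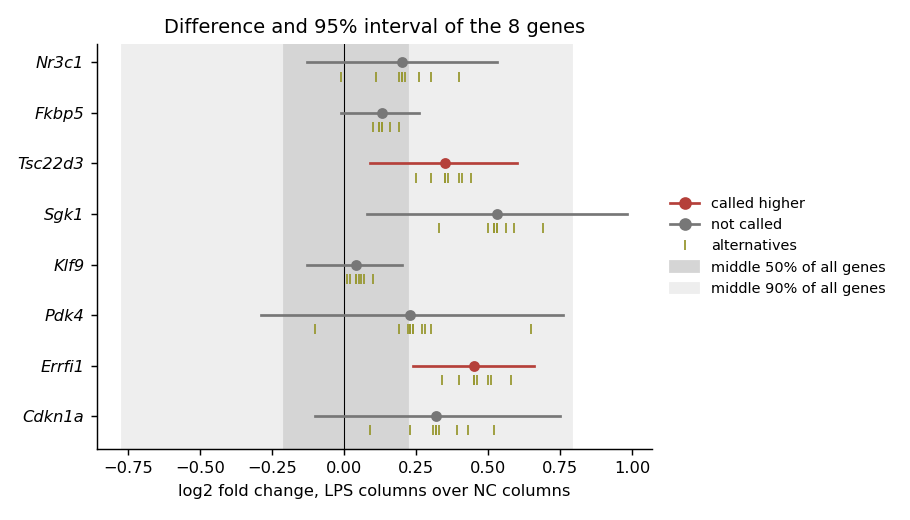
Log2 fold change of the LPS columns over the NC columns (horizontal axis) for each of the 8 genes; points are the estimates, bars their 95% intervals and small ticks the alternatives in processing, over bands for the middle 50% and 90% of all genes tested. The intervals of Tsc22d3, Sgk1 and Errfi1 lie above 0, and of these Tsc22d3 and Errfi1 passed the adjusted threshold.

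Per length, Fkbp5 and Klf9 had the highest levels of the 8, with a mean over the 4 libraries of 19.0 TPM each. Their order could not be told: in the LPS columns Fkbp5 was at 20.3 and 20.5 TPM and Klf9 at 20.2 and 19.5 TPM, and in the NC columns Fkbp5 was at 17.3 and 17.7 TPM and Klf9 at 18.5 and 17.7 TPM. Errfi1 followed at a mean of 10 TPM, apart in range from the genes above and below it, and then Tsc22d3 at 4.90 TPM. Cdkn1a was next at 3.15 TPM, and its highest library (4.11 TPM, LPS replicate 1) reached the lowest of Tsc22d3 (4.04 TPM, NC replicate 1). The receptor gene Nr3c1 (1.75 TPM), Pdk4 (1.32 TPM) and Sgk1 (1.23 TPM) had the lowest levels and overlapped in range. No exon of the 8 genes overlapped another gene of the table.

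**Figure D3:**
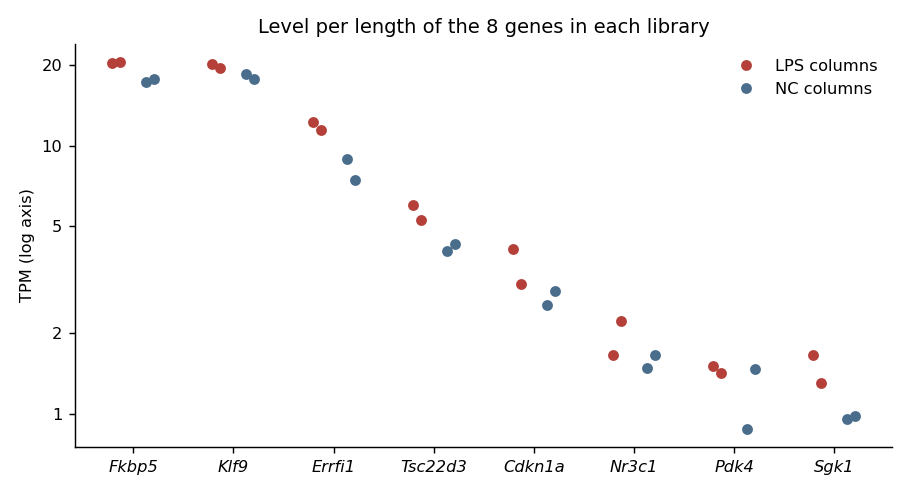
TPM (log axis) of the 8 genes in each library, ordered by their mean over the 4 libraries, with LPS columns to the left of NC columns. Fkbp5 and Klf9 share the top at a mean of 19.0 TPM, and Nr3c1, Pdk4 and Sgk1 lie together at the bottom between 0.879 and 2.21 TPM.

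A wider list of 36 other genes known to be induced by glucocorticoids moved in both directions. Of 33 tested, 11 rose, 5 fell and 17 were not called, which is 48.5% called against 31.5% of all genes, and the median log2 fold change was 0.27. The list was chosen with earlier results of these data known, so its share is a description only. The rises with the largest size were in Lcn2, Cebpb and Cebpd, which are also known as genes of the acute-phase response. Lcn2, which encodes an iron-siderophore-binding protein, was at 209 ± 28 CPM in the LPS columns and 59.2 ± 4.19 CPM in the NC columns (SD, n = 2 each), a rise of 1.82 ± 0.07 (log2, SE). Cebpd, a transcription factor gene that overlaps Spidr on the opposite strand and is uncertain for that reason, rose by 1.53 ± 0.16. Cebpb, which likewise overlaps Tmem189, had 31 and 26 counts in the LPS columns, against 16 and 5 counts in the NC columns (1.61 ± 0.38), a call lost with DESeq2 (adjusted p = 0.0616, the highest of its alternatives from 4.55e-05) and in edgeR without NC replicate 2. The remaining rises, of 0.45 to 1.42, were in Rgs2, Tgm2, Angptl4, Fbxo32, Mertk, Zbtb16, Arrdc2 and Rasd1. With DESeq2, 5 genes of the list rose and 2 fell, where over all genes it called 1454 higher and 1845 lower, against 3169 and 3394 in edgeR.

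The 5 genes of that list that fell were Cd163, Thbd, Trim63, Hif3a and Glul. Cd163, the haemoglobin scavenger receptor gene of macrophages and a classical glucocorticoid target there, had 4 and 2 counts in the LPS columns, against 17 and 11 counts in the NC columns. That is 0.203 and 0.112 CPM against 0.771 and 0.535 CPM, so Cd163 passed the low-count filter only through the group where it is high. Under the filter that asks for 1 CPM in 2 libraries it was not tested, and its fall is uncertain for these reasons. It fell by 2.0 ± 0.57 (log2, SE; edgeR adjusted p = 0.00593), a call lost with DESeq2 and in edgeR without LPS replicate 2 or NC replicate 1 (adjusted p over the alternatives, Benjamini-Hochberg in each tool, 0.00296 to 0.166). Thbd, which encodes the anticoagulant receptor thrombomodulin, had a log2 fold change of -1.0 ± 0.29 and lost its call with DESeq2 and in edgeR without LPS replicate 1 or NC replicate 2. Trim63, a muscle ubiquitin ligase gene, fell by 0.96 ± 0.21 with 38 and 32 counts in the LPS columns and 77 and 77 counts in the NC columns. Hif3a fell by 0.94 and Glul fell by 0.17 on the log2 scale. Among the classical targets not called, the clock gene Per1 was at -0.08 ± 0.06 and the MAP kinase phosphatase gene Dusp1 at 0.15 ± 0.15. Zbtb16, a target that also marks undifferentiated spermatogonia, rose by 0.53 ± 0.17, but it was not called by DESeq2 (adjusted p = 0.237, the highest of its alternatives from 0.00222) or, in edgeR, without LPS replicate 2 or NC replicate 1.

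**Figure D4:**
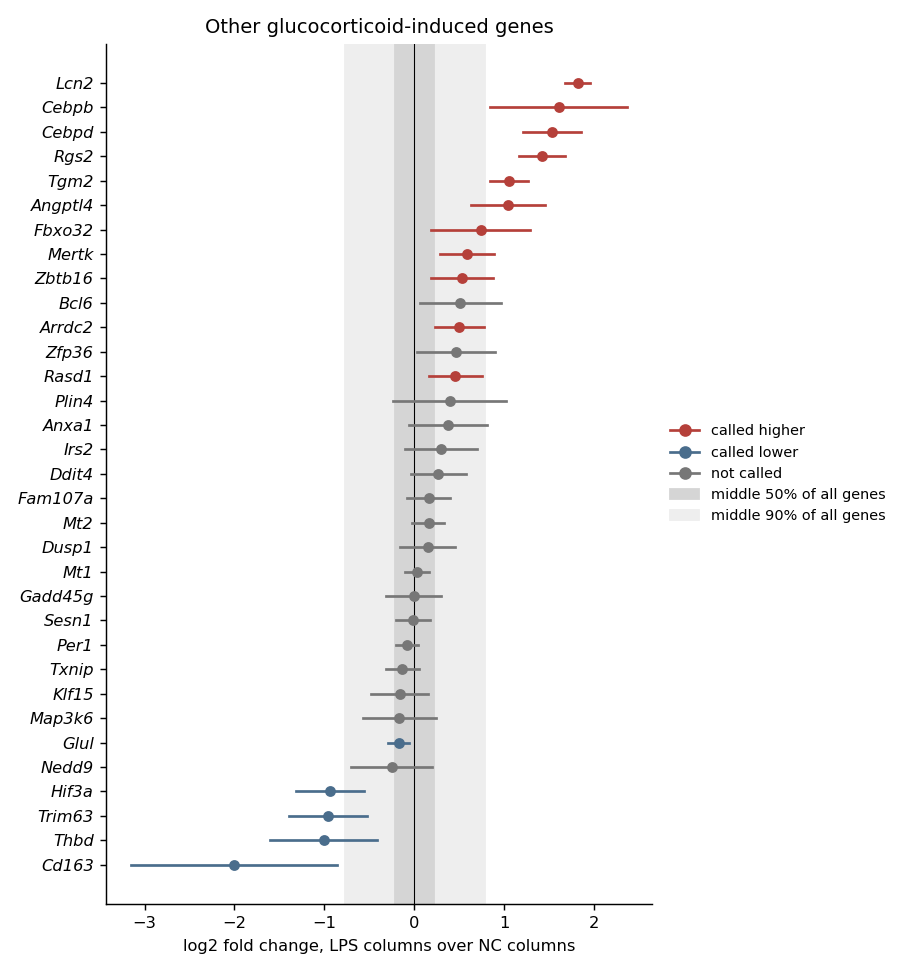
Log2 fold change of the LPS columns over the NC columns with 95% intervals for the 33 tested genes of the wider glucocorticoid-induced list, over the same bands for all genes. The estimates run from -2.0 (Cd163) to 1.82 (Lcn2), with 11 called higher and 5 called lower. Cd163 was below 1 CPM in every library and passed the low-count filter only through the NC columns. Cebpb was below 1 CPM in the NC columns and passed that filter only with the help of the LPS columns.

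Genes of the receptor complex and its cofactors differed less in size. The median absolute log2 fold change was 0.06 for chaperones and co-chaperones and 0.13 for coregulators, against 0.22 for all genes tested. Of 13 chaperones and co-chaperones of the receptor, 3 rose, 0 fell and 10 were not called, with a median log2 fold change of 0.03. The 23.1% called was not far from the 31.5% of all genes tested. The heat-shock cognate gene Hspa8, whose exons hold 3 small nucleolar RNA genes, rose by 0.38 ± 0.05 and Hsp90ab1, a cytosolic HSP90 gene, rose by 0.23 ± 0.05 (log2, SE), while Hsp90aa1 was at -0.01 ± 0.05 and Fkbp4 at 0.05 ± 0.05. The phosphatase gene Ppp5c rose by 0.22 ± 0.07, a call lost with DESeq2 and in edgeR without LPS replicate 2 or NC replicate 2. Of 16 coregulator genes, 3 rose, 1 fell and 12 were not called (25% called, likewise not far from the 31.5% of all genes). The Mediator subunit gene Med1 rose by 0.28 ± 0.06, to 82.2 ± 1.67 CPM in the LPS columns, against 67.5 ± 3.01 CPM in the NC columns (SD, n = 2 each). Ehmt1 and Ncoa3 rose by 0.34 ± 0.10 and 0.21 ± 0.08, calls lost with DESeq2 and in at least 1 fit without a library; their exons overlap Gm37139 and Sulf2. Scaled by library size alone, 7 coregulator genes rose, but over all genes 4210 then rose, against 3169 with TMM.

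Of 11 genes of local glucocorticoid supply, 7 were tested, of which 1 rose and 1 fell (28.6% called, near the 31.5% of all genes). H6pd, which supplies the cofactor that 11-beta-hydroxysteroid dehydrogenase type 1 needs to regenerate active hormone, rose by 0.69 ± 0.12 (edgeR adjusted p = 1.14e-05). The gene of that enzyme, Hsd11b1, had 8 and 9 counts in the LPS columns, against 0 and 1 counts in the NC columns, too few to pass the filter. The ratio of scaled counts was 19.2, with an exact binomial 95% interval of 3.02 to 804 that covers counting error only, and without a filter on low counts its edgeR adjusted p was 0.00105. Hsd11b2, which inactivates the hormone, had 0 and 2 counts in the LPS columns, against 2 and 1 counts in the NC columns, so no difference could be detected. Cyp21a1, the steroid 21-hydroxylase gene on the path to corticosterone, fell by 3.18 ± 0.25, and it overlaps Tnxa on the opposite strand. Nr3c2, the mineralocorticoid receptor gene, which overlaps Gm10649, was not called (-0.13 ± 0.25).

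Relatives of the response genes and their other regulators were examined in the same way. Their lists too were chosen with earlier results of these data known, so the shares called are a description only. Of 11 tested paralogues (from the Tsc22d, Sgk, Klf, Pdk and Cdkn1 families), 1 rose, 0 fell and 10 were not called, so that 9.09% were called against 31.5% of all genes. The member that rose was Tsc22d1, by 0.16 ± 0.05 against 0.35 ± 0.13 for Tsc22d3 (log2, SE), a difference between the genes that was not tested, and the Tsc22d1 call was lost with DESeq2 and in edgeR without LPS replicate 2, NC replicate 1 or NC replicate 2. Of 14 tested p53 target genes, the company of Cdkn1a, 4 rose, 0 fell and 10 were not called, and the 28.6% called was near the 31.5% of all genes. Btg2 and Phlda3 rose by 0.94 ± 0.24 and 0.89 ± 0.24, Ccng1 by 0.36 ± 0.14 and Mdm2 by 0.15 ± 0.05, whereas Trp53 itself was at 0.14 ± 0.14. The calls of all 4 that rose were lost with DESeq2. In edgeR the Ccng1 call was also lost without a filter on low counts and with any 1 library left out. The Mdm2 call was also lost in edgeR without LPS replicate 2, NC replicate 1 or NC replicate 2. Of 12 PPAR-alpha and fasting target genes, the company of Pdk4, 2 rose, 4 fell and 6 were not called, so that 50% were called against 31.5% of all genes. Cpt1a, a gene of fatty acid oxidation, rose by 0.39 ± 0.09, and the fatty acid carrier gene Cd36 fell by 1.58 ± 0.18.

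Markers of the somatic cells known to carry the receptor moved beside these genes, and their part in the results was not tested. The share called ran from 50% (spermatogonia and spermatocyte markers) to 85.7% (macrophage and spermatid markers). Over all genes tested, 31.5% were called, 15.2% higher and 16.3% lower. The marker lists too were chosen with earlier results of these data known. Of 11 Sertoli cell markers 6 rose and 1 fell, with a summed level of 1290 and 1270 CPM in the LPS columns, against 945 and 954 CPM in the NC columns. Of 6 peritubular myoid markers 4 rose and 1 fell, with 461 and 464 CPM in the LPS columns and 420 and 434 CPM in the NC columns. Of 9 Leydig cell markers 2 rose (Nr5a1 and Cyp11a1) and 5 fell, with 482 and 558 CPM in the LPS columns and 886 and 929 CPM in the NC columns. Cyp17a1 alone was at 41.1 and 49.4 CPM in the LPS columns, against 247 and 249 CPM in the NC columns. Insl3, at 196 to 222 CPM, was not called (-0.07 ± 0.06, log2, SE). Of 7 macrophage markers 4 rose and 2 fell, with 48.4 and 53.8 CPM in the LPS columns and 39.8 and 42.2 CPM in the NC columns, Itgam rising by 2.68 ± 0.18 and Mrc1 falling by 0.67 ± 0.10 (log2, SE). Of 5 tested endothelial markers 2 rose and 1 fell, with 23.4 and 26.2 CPM in the LPS columns and 26.0 and 20.8 CPM in the NC columns. Of the germ cells, 3 of 6 spermatogonia markers rose and 0 fell, 2 of 6 spermatocyte markers rose and 1 fell, and 1 of 7 spermatid markers rose and 5 fell, the last with 14100 and 13600 CPM in the LPS columns and 19900 and 19200 CPM in the NC columns. Prm2 alone was at 6570 and 6410 CPM in the LPS columns and 10900 and 10100 CPM in the NC columns. Such sums follow their most abundant genes and do not measure cell numbers. None of these lists had a marker at 0 in every library.

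**Figure D5:**
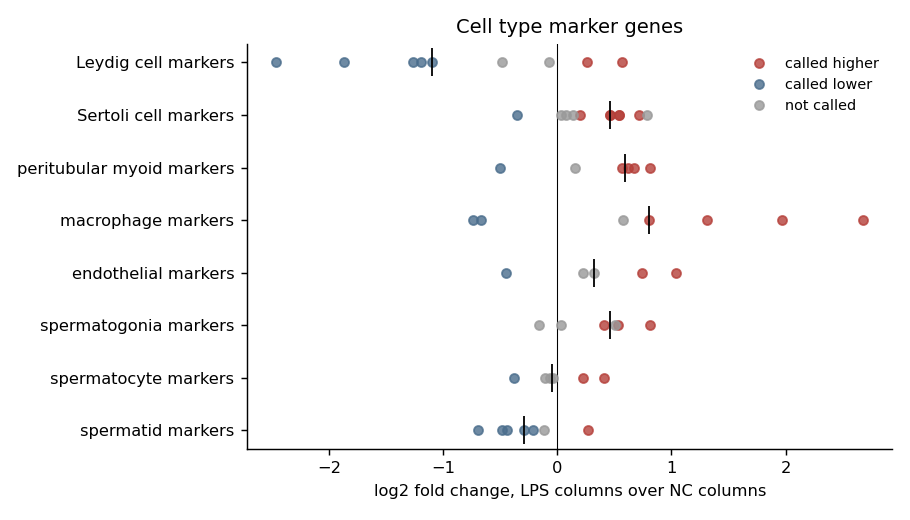
Log2 fold change of the LPS columns over the NC columns for each tested marker gene (points), by cell type, with a black tick at the median of each list. Medians run from -1.10 for Leydig cell markers to 0.80 for macrophage markers.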

How the data were processed

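The authors deposited 1 table of unnormalised counts, laid out like featureCounts output per the file headers. The submitters' processing notes name, without roles, build mm10 and the tools STAR 2.5.3a, Trimmomatic 0.36, Subread 1.5.1, featureCounts, DESeq and edgeR 3.12.1. Their annotation release and strand setting were not found, so overlapping genes are uncertain. Replicates differed by more than sampling noise (chi-square over its degrees of freedom of 2.31 in the LPS columns, 2.20 in the NC columns) and were kept apart.

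Counts were filtered with filterByExpr, scaled by TMM factors and tested with edgeR 4.0.16 (quasi-likelihood, Benjamini-Hochberg, called at an adjusted p under 0.05), with 2 residual and 34 prior degrees of freedom. SE and intervals of fold changes follow from the F statistic. The fit was tested on simulated data. TPM used the deposited exon lengths. Alternatives used DESeq2 1.42.0, limma 3.58.1, other scalings, other filters, a replicate block and 1 library left out at a time. A count of 0 in 1 library allows up to 0.134 to 0.170 CPM (3 counts), which covers counting error only. The members and gene lists were chosen with earlier results of these data known. From each list, up to 3 genes called in each direction with the largest change were named, with 10 genes given whether called or not and the 3 nearest to Nr3c1; Rgs2, Tgm2, Angptl4, Fbxo32, Mertk, Arrdc2, Rasd1, Hif3a, Glul and Hsp90aa1 were named after their values were seen. Some genes that this rule picks are not reported here. Promoter sequences are from RefSeq (GRCm38.p6).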

Additional observations from a re-analysis of the deposited data

How the results depend on the processing

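Of the 8 genes, 2 rose and 0 fell with TMM scaling, with RLE size factors, with either other filter, with limma-voom and with the replicate number as a block; 4 rose with library size as the only scaling, 1 rose with DESeq2, and 1 to 3 rose with a library left out, where the lone library of a group is assumed to vary like the other pair. None of the 8 fell under these alternatives. Over all genes DESeq2 called 1454 higher and 1845 lower, against 3169 and 3394 with edgeR, and library size as the only scaling called 4210 higher and 2579 lower, so that 62.0% of its calls were higher against 48.3% with TMM. That scaling moved the median log2 fold change of all genes from 0.002 to 0.066. With a library left out, the log2 fold change changed sign for some genes that were not called: it ran from -0.01 to 0.40 for Nr3c1, -0.10 to 0.65 for Pdk4, -0.40 to 0.23 for Nr3c2, -0.16 to 0.39 for Pparg and -0.04 to 0.22 for Acaa2. With the replicate block 3376 genes were called higher and 3593 lower, and no call among the 8 changed; the deviations of same-numbered libraries from their group means had a correlation of 0.018 over genes, so nothing shows that the numbers pair the libraries. Pdk4, Sgk1 and Cdkn1a, none of them called, had 29 to 73 counts per library and log2 fold changes of 0.23 to 0.53. Thbd and Cebpb, with 5 to 43 counts, were called at larger log2 fold changes of -1.0 and 1.61. DESeq2 called neither of those 2. The part of depth was not tested.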
